A study of Mus musculus with 30 samples.

Results

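The 10 genes described here make up the core of antigen presentation by the major histocompatibility complex (MHC) in the mouse. They were chosen by name, by mapping the Ensembl identifiers of the deposited tables to gene symbols, and all 10 were found among 41388 genes. RNA-seq came from 20 libraries in 6 groups. Hepatocytes of 12-week-old mice, isolated with collagenase and plated overnight on collagen, gave 3 pools labelled A1cf_Tg/+ (Tg) and 3 wild-type (WT) C57BL/6J pools. Whole livers of 12-month-old mice gave 4 pools labelled A1cf_Tg/+ and 4 WT C57BL/6J (6J) pools, sequenced in one study, and 3 A1cf_-/- (KO) and 3 WT C57BL/6NJ (6NJ) pools, sequenced in another. Each pool held RNA of 3 to 4 mice, and neither the promoter of the transgene nor any overlap of mice between pools is given in the sources used here. P-values therefore measure the spread between pools, which may be in part technical.

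MHC class II molecules show peptides from engulfed material to CD4+ T cells and are carried mostly by B cells, dendritic cells and macrophages, in liver the Kupffer cells. MHC class I molecules show peptides from inside the cell to CD8+ T cells and are carried by nearly all nucleated cells, hepatocytes included. In background knowledge, the factor CIITA drives class II genes through the X and Y boxes of their promoters, while NF-kappaB acts on class I promoters through enhancer A and interferon regulatory factors through a neighbouring interferon response element.

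Among the members, H2-Aa, H2-Ab1 and H2-Eb1 encode class II chains and Cd74 encodes the invariant chain that guards their peptide groove. H2-K1 and H2-D1 encode class I heavy chains and B2m their shared light chain. Tap1 is a subunit of the pump that carries peptides into the endoplasmic reticulum, and Psmb8 and Psmb9 are catalytic subunits of the immunoproteasome, which cuts proteins into those peptides. In the deposited GRCm38 gene models 8 members lie on chromosome 17, with the class II chains between positions 34263209 and 34316199, Tap1, Psmb8 and Psmb9 between 34181988 and 34201454, H2-K1 at 33996017 to 34000333 and H2-D1 at 35262730 to 35267499. B2m lies on chromosome 2 (122147686 to 122153083).

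The promoters of a pair of class II chains and of a pair of class I genes are shown because these sets of genes moved apart from each other in the data. Each line holds the 180 bases before the RefSeq start, 5′ to 3′ on the gene's strand (RefSeq, GRCm38.p6). Capitals mark CTGATTGG (Y box), CTNGCAACT (X box core) and TGACGTCA (cAMP response element) in the class II promoters, and GGGATTCCC (enhancer A core) and AANNGAAA (interferon regulatory factor core) in the class I promoters, on either strand.
H2-Aa, chr17:34287824-34288003, minus strand: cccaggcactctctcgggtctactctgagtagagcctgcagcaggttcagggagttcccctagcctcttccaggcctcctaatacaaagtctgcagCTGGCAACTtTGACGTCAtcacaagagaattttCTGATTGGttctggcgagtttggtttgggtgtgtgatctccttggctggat
H2-Eb1, chr17:34305687-34305866, plus strand: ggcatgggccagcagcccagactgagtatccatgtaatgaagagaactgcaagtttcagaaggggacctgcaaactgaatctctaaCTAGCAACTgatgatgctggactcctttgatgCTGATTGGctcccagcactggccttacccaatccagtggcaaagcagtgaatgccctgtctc
H2-K1, chr17:34000348-34000527, minus strand: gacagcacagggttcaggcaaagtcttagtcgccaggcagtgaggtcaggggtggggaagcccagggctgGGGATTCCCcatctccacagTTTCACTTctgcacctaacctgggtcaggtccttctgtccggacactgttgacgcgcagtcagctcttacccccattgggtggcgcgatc
B2m, chr2:122147507-122147686, plus strand: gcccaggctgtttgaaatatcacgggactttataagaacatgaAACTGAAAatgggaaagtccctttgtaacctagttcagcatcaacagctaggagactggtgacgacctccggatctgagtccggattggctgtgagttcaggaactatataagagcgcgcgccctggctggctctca

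A search of both strands over the 250 bases before the start found these letters as follows, where 8 members had an entry among 27025 promoters. CTNGCAACT was found in H2-Aa and H2-Eb1 and in 0.814% of all promoters. CTGATTGG was found in 5 of the 8 members, H2-Aa, H2-Eb1, H2-D1, Psmb9 and Tap1, against 4.07% of all promoters, and Psmb9 and Tap1 hold it in windows that overlap on opposite strands. GGGATTCCC was found in H2-K1 and H2-D1 and in 0.311% of all promoters, and the H2-K1 and H2-D1 stretches share a run of 47 bases. TGACGTCA was found in H2-Aa and in 1.62% of all promoters. AANNGAAA, which is common at 21.6% of all promoters, was found in H2-K1, H2-D1, B2m and, farther out than the stretch shown, H2-Aa. The motifs were chosen after these promoters were read, so their presence in the members is no test of enrichment. These matches describe the sequence and are not measured binding sites.

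The RNA-seq libraries held 17044839 to 37211328 counts, and all 10 members passed the filter on low counts in every comparison. The A1cf transcript checked the labels. It reached counts-per-million (CPM) values of 163, 156, 159 and 174 in the livers labelled Tg, against 279, 217, 216 and 218 CPM in 6J livers, so it went against the label there (log2 change −0.65 ± 0.11 SE, edgeR adjusted p = 0.0369). A change is called here where the adjusted p is below 0.05. A1cf had 7.36, 9.83 and 10.5 CPM in hepatocytes labelled Tg, against 6.46, 10.6 and 11.01 CPM in WT hepatocytes (0.02, adjusted p = 0.962), and it fell in KO livers (24.5, 20.1 and 28.9 CPM, against 237, 203 and 199 CPM in 6NJ livers). The 8 hepatocyte markers were abundant in every library, at 36061 to 99677 summed CPM. One WT library, 6J pool 2, held 1920.5 summed CPM of 9 skeletal muscle genes, against 2.05 to 3.13 CPM in the other 6J pools. KO pools 1 and 3 held 104 and 90.0 CPM and KO pool 2 held 20.8 CPM, against 0.737 to 1.08 CPM in 6NJ livers. Hepatocytes labelled Tg held 17.5 to 46.9 CPM and WT hepatocytes 4.70 to 12.4 CPM. Mitochondrial genes took 1.40%, 1.39% and 2.01% of the counts in hepatocyte pools 1 and 2 labelled Tg and WT pool 1, and 3.14% to 3.71% in the other 3 hepatocyte pools. Member calls that rest on 6J pool 2, KO pools 1 and 3 or the low-mitochondrial pools are given with and without them.

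In RPKM, which divides CPM by gene length in kilobases, B2m was the most abundant member in all 6 groups, at 2182 ± 199.8 RPKM in livers labelled Tg and 1748 ± 161 RPKM in 6J livers (SD, n = 4 each). H2-K1 followed in all 6 groups, and H2-D1 came next in 5 of them, with Cd74 between H2-K1 and H2-D1 in the livers labelled Tg. In the 4 liver groups, Cd74 lay above the 3 class II chains, which lay above Tap1, Psmb8 and Psmb9. In hepatocytes this order was turned round, since Psmb8 and Tap1 lay above Cd74 and the class II chains came last. WT hepatocytes held 58.7 ± 15.3 RPKM of Psmb8 and 2.54 ± 1.10 RPKM of H2-Aa (SD, n = 3), while 6J livers held 6.69 ± 2.46 RPKM of Psmb8 and 17.6 ± 6.86 RPKM of H2-Aa. Neighbours in this order often overlapped between pools, as H2-Ab1, H2-Eb1 and H2-Aa did in both hepatocyte groups.

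**Figure D1:**
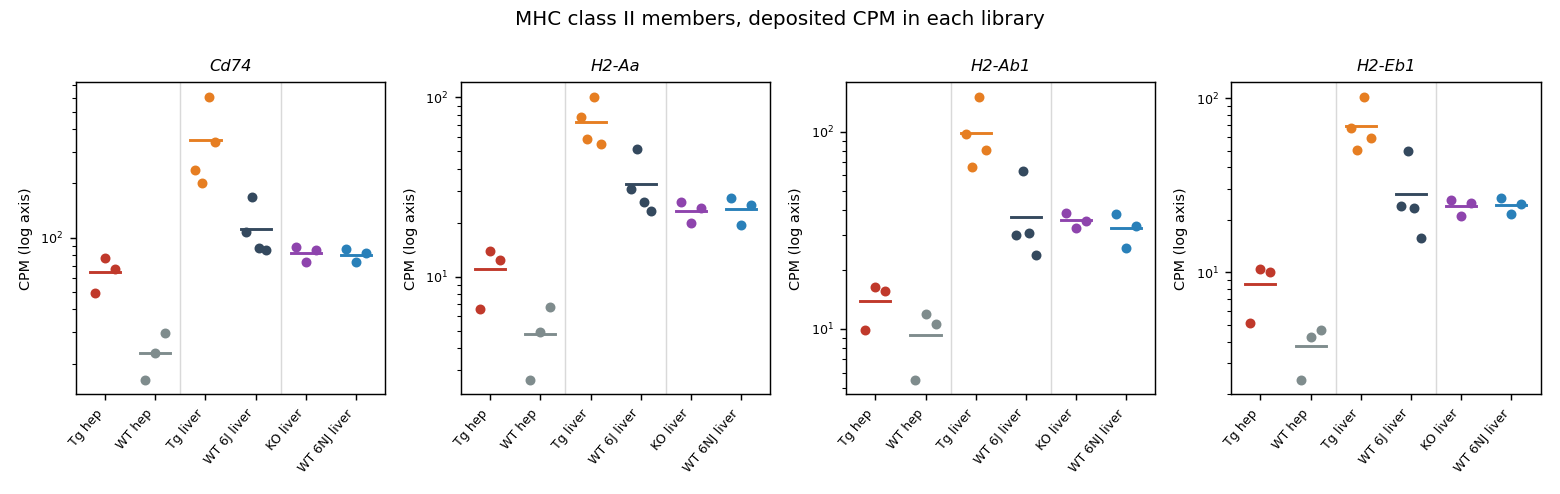
Deposited CPM (log axis) of the 4 class II members in each of 20 libraries; points are pools and lines are group means. The 4 livers labelled Tg lie above the 4 6J livers for each gene, 6J pool 2 is the highest of the WT pools, and KO and 6NJ livers overlap.

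The comparison of livers labelled Tg with 6J livers asked whether antigen presentation genes differ with the transgene at 12 months. All 4 class II members had higher values in every pool labelled Tg than in any 6J pool, with fitted folds of 2.02 to 2.79, but none passed the adjusted threshold. Cd74 reached 238, 201, 608 and 339.8 CPM in livers labelled Tg, against 108, 167, 87.7 and 84.9 CPM in 6J livers. H2-Ab1 reached 97.0, 66.3, 151 and 80.8 CPM in livers labelled Tg, against 29.8, 63.2, 30.5 and 23.7 CPM in 6J livers. The groups did not overlap for either gene, pool 3 was the highest of those labelled Tg, and the nearest 6J pool was in both cases pool 2, the one with muscle RNA. H2-Aa ran from 55.2 to 101 CPM in livers labelled Tg and from 23.3 to 51.7 CPM in 6J livers, and H2-Eb1 from 50.2 to 102 CPM and from 15.8 to 49.7 CPM in the same order.

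With edgeR, the log2 changes were 1.48 ± 0.33 SE for Cd74 (adjusted p = 0.0660), 1.29 ± 0.32 for H2-Ab1 (0.0777), 1.02 ± 0.26 for H2-Aa (0.0831) and 1.17 ± 0.33 for H2-Eb1 (0.102). No member of 10 was called in this comparison, where 1.33% of the 14110 genes tested were, with 0.971% called higher. At an unadjusted p below 0.05 there were 6 members (the class II members, H2-D1 and Psmb8), where 20.3% of all genes passed, and 6 members had groups that did not overlap and were higher in the livers labelled Tg, where 11.3% of all genes were. The median log2 change was 0.68 over the members and −0.0048 over all genes tested. Without 6J pool 2, all 4 class II members were called, with log2 changes of 1.28 to 1.70 and adjusted p from 0.0261 to 0.0402, in a fit that called 385 of 14315 genes. DESeq2, which called 1242 of 14110 genes, called 5 members, the class II members and H2-D1, with adjusted p = 0.000288 for Cd74 and 0.0447 for H2-D1.

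The class I members differed less in the same livers. H2-D1 reached 436, 429, 575 and 519 CPM in livers labelled Tg, against 255, 426, 308 and 291 CPM in 6J livers, with a log2 change of 0.47 ± 0.16 SE (edgeR adjusted p = 0.140). The groups did not overlap, by the narrow gap between 429 and 426 CPM. B2m ran from 1689 to 2105 CPM in livers labelled Tg and from 1364 to 1641 CPM in 6J livers, also without overlap (0.18 ± 0.12, adjusted p = 0.431). H2-K1 ran from 978 to 1149 CPM and from 677 to 1033 CPM in the same order, with an overlap at 6J pool 2 (0.21 ± 0.14, adjusted p = 0.419).

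The genes of peptide supply overlapped between these groups. Psmb8 reached 22.1, 25.5, 52.2 and 33.5 CPM in livers labelled Tg, against 14.4, 27.9, 13.0 and 17.9 CPM in 6J livers (0.72 ± 0.28 SE, adjusted p = 0.201). Pool 3 labelled Tg was the highest and 6J pool 2 lay above 2 of the pools labelled Tg. Tap1 and Psmb9 behaved alike, at 30.8 to 53.6 and 18.5 to 39.1 CPM in livers labelled Tg and 18.0 to 40.0 and 8.43 to 23.3 CPM in 6J livers, and neither was called (adjusted p = 0.455 for Tap1 and 0.274 for Psmb9).

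**Figure D2:**
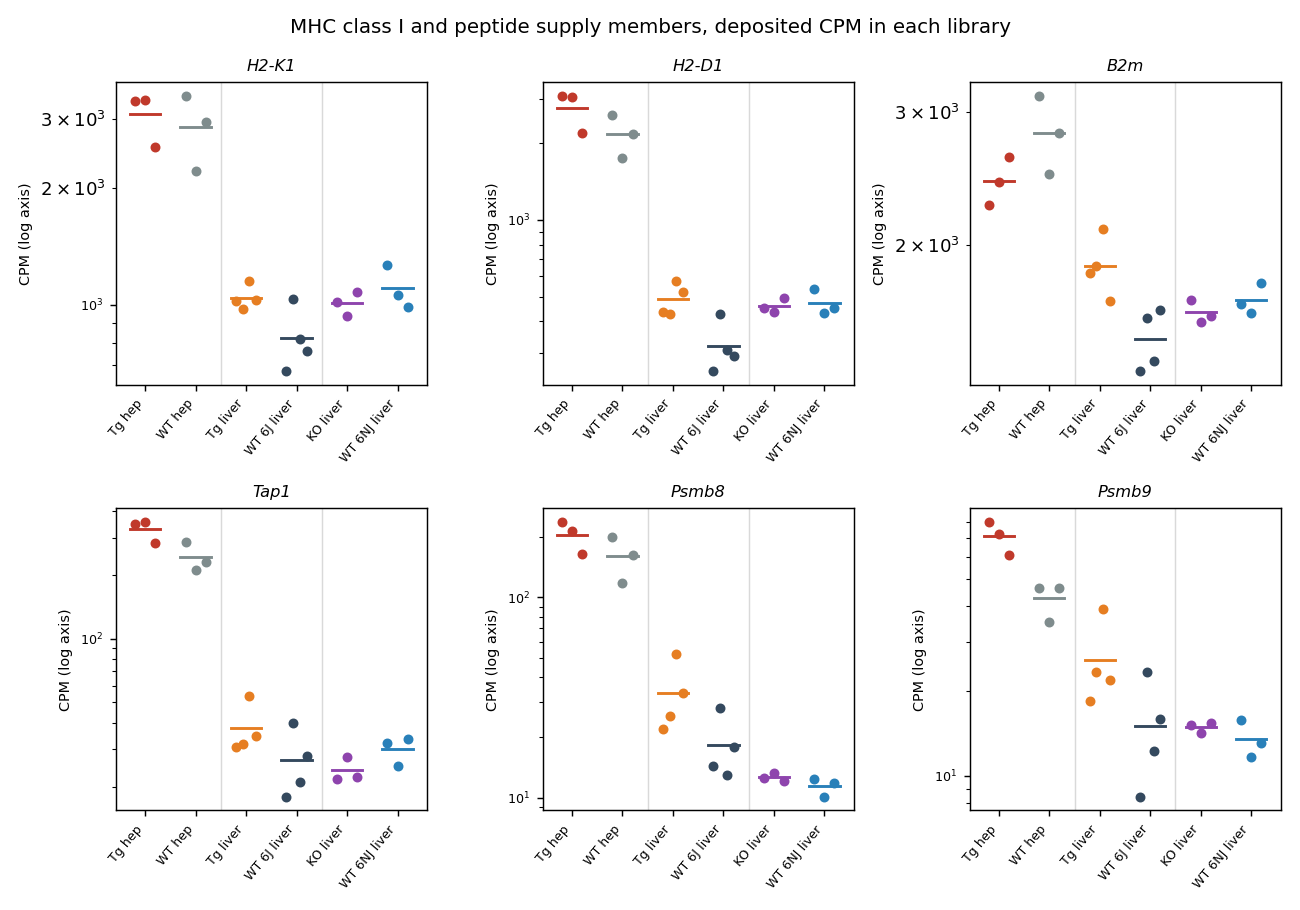
Deposited CPM (log axis) of the 3 class I members and of Tap1, Psmb8 and Psmb9 in each of 20 libraries; points are pools and lines are group means. Both hepatocyte groups lie above all 4 liver groups for each gene except Psmb9, where pool 3 of the livers labelled Tg (39.1 CPM) lies above the lowest WT hepatocyte pool (35.3 CPM), and groups within a tissue mostly overlap.

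Of 18 other genes of the class II pathway, 15 were tested in this comparison and 2 rose, while 13 were not called. Both are lysosomal proteases: Lgmn, which trims antigens and the invariant chain, reached 74.0, 82.9, 107 and 88.2 CPM in livers labelled Tg, against 36.6, 53.7, 39.0 and 37.3 CPM in 6J livers (0.94 ± 0.14 SE, adjusted p = 0.0194). Ctsl, cathepsin L, rose by 0.67 ± 0.13 (adjusted p = 0.0457). These 2 calls rest on single pools: the list held 0 calls without pool 4 labelled Tg or without 6J pool 1, 3 or 4, and 1 call without pool 2 or 3 labelled Tg or with no filter. The peptide-loading gene H2-DMa had a change of 1.17 ± 0.33 (adjusted p = 0.105) and Ciita, the class II transactivator, 0.61 ± 0.27 (adjusted p = 0.241). None of 21 tested genes of the class I pathway was called, and 2 had an unadjusted p below 0.05. Nlrc5, the class I transactivator, had a change of −0.0044 ± 0.15. None of 17 tested interferon gamma signalling genes was called, and 3 had an unadjusted p below 0.05. Ifng itself had 0 to 0.0966 CPM in livers labelled Tg and 0 to 0.0790 CPM in 6J livers.

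Leukocyte markers were measured beside the class II members. The 7 pan-leukocyte genes summed to 115, 116, 187 and 113 CPM in livers labelled Tg, against 64.0, 118, 63.0 and 54.9 CPM in 6J livers; all 7 had a change above 0 and none was called. Of 16 Kupffer cell and macrophage genes, which summed to 630.5 to 992 CPM in livers labelled Tg and 429.7 to 752 CPM in 6J livers, 14 had a change above 0, 11 had an unadjusted p below 0.05, where 20.3% of all genes had one, and 1 was called, Cd163, which fell (−1.58 ± 0.28, adjusted p = 0.0370). The defining Kupffer cell markers Clec4f and Adgre1 reached 73.2 to 123 and 23.01 to 41.1 CPM in livers labelled Tg and 51.0 to 90.5 and 11.8 to 29.3 CPM in 6J livers. Flt3, a dendritic cell receptor, had 1.14 to 1.36 CPM in livers labelled Tg and 0.165 to 0.632 CPM in 6J livers. The 9 dendritic cell genes together summed to 27.0 to 44.9 and 21.1 to 29.5 CPM in the same order, with overlap. Of 8 tested, 7 had a change above 0, 2 had an unadjusted p below 0.05 and 0 were called. B and plasma cell genes summed to 35.5 to 151 CPM in livers labelled Tg and 15.3 to 65.1 CPM in 6J livers, mostly Ighm, while Cd79a had 0.601 to 1.71 and 0.528 to 1.74 CPM. The hepatocyte marker list summed to 63635 to 72256 CPM in livers labelled Tg and 94419 to 99677 CPM in 6J livers. In these bulk samples, more cells of a type and more RNA per cell cannot be told apart.

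The sum of the 4 class II members was therefore set over the pan-leukocyte sum within each library, a ratio chosen after the values were seen. It was 4.17, 3.25, 5.15 and 4.75 in livers labelled Tg, against 3.01, 2.81, 2.66 and 2.69 in 6J livers. The groups did not overlap, and 6J pool 2 lay among the other 6J pools on this scale. In hepatocytes labelled Tg the ratio was 2.01, 2.04 and 2.03, against 1.38, 1.81 and 1.48 in WT hepatocytes, again without overlap. In KO livers it was 2.22, 2.07 and 2.00, against 2.12, 1.95 and 2.16 in 6NJ livers, where the groups overlapped. Over the Kupffer cell and macrophage sum in place of the pan-leukocyte sum, the log2 difference of livers labelled Tg from 6J livers was 0.84, against 0.61. On that scale the groups overlapped, in livers and in hepatocytes. Pool 2 of the livers labelled Tg held 376 over 866 CPM, a lower ratio than 193 over 432 CPM in 6J pool 1. Hepatocyte pool 1 labelled Tg held 70.7 over 443 CPM, a lower ratio than 44.0 over 212 CPM in WT pool 2. No test was run on these ratios, and the part of leukocyte number in the class II values was not tested.

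**Figure D3:**
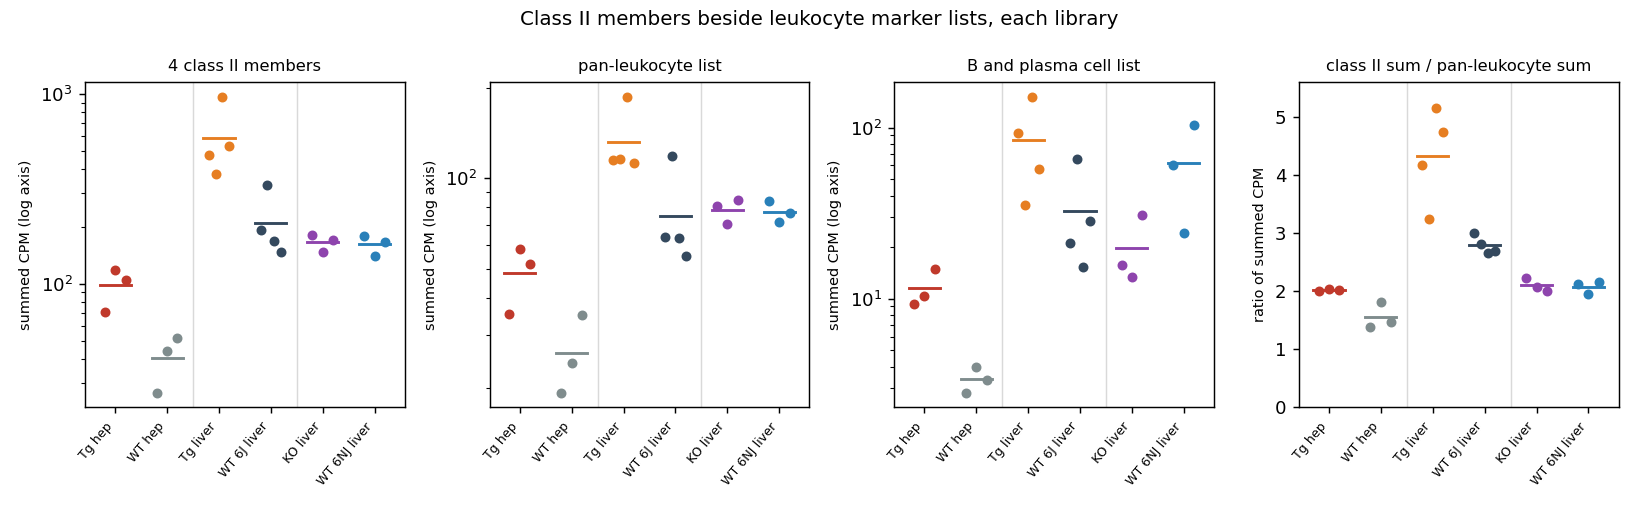
Summed CPM (log axes) of the 4 class II members, the 7 pan-leukocyte genes and the 8 B and plasma cell genes in each library, and, on a linear axis from 0, the class II sum over the pan-leukocyte sum; points are pools and lines are group means. The ratio is 3.25 to 5.15 in livers labelled Tg and 2.66 to 3.01 in 6J livers.

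In plated hepatocytes, the comparison of pools labelled Tg with WT pools asked the same question at 12 weeks in cells isolated as hepatocytes. Cd74 rose 2.88-fold and was the only member called. It reached 49.1, 77.5 and 66.8 CPM in hepatocytes labelled Tg, against 16.2, 22.96 and 29.7 CPM in WT hepatocytes. The groups did not overlap, and the log2 change was 1.53 ± 0.24 SE (edgeR adjusted p = 0.0304). This was 1 of 10 members, where 3.15% of the 13770 genes tested were called and 1.53% were called higher. The call was lost without any 1 of 5 of the 6 pools (adjusted p from 0.0783 to 0.153, log2 change 1.35 to 1.74) and held without pool 3 labelled Tg. It also held without the 3 pools of low mitochondrial share, at 1.37 (adjusted p = 9.31e-05), which leaves 1 pool labelled Tg that is assumed to vary like the 2 WT pools.

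The other class II members pointed the same way at low levels. H2-Eb1 had 5.13, 10.4 and 10.1 CPM in hepatocytes labelled Tg, against 2.40, 4.26 and 4.70 CPM in WT hepatocytes, without overlap (1.20 ± 0.34 SE, adjusted p = 0.0922). H2-Aa had 6.58, 13.9 and 12.4 CPM in hepatocytes labelled Tg, against 2.64, 4.92 and 6.75 CPM in WT hepatocytes (1.23 ± 0.38, adjusted p = 0.110), with pool 1 labelled Tg inside the WT range. H2-Ab1 ran from 9.84 to 16.3 CPM and from 5.50 to 11.8 CPM in the same order (0.61 ± 0.31, adjusted p = 0.227).

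Of the peptide supply genes, Psmb9 had 79.9, 72.5 and 61.1 CPM in hepatocytes labelled Tg, against 46.6, 35.3 and 46.5 CPM in WT hepatocytes. Those groups did not overlap, yet the change of 0.78 ± 0.19 SE missed the threshold (adjusted p = 0.0690). Tap1 had 349, 356 and 283 CPM in hepatocytes labelled Tg, against 286, 212 and 229.6 CPM in WT hepatocytes, which overlapped narrowly (0.48 ± 0.18, adjusted p = 0.143). Psmb8 had a change of 0.40 ± 0.25 (adjusted p = 0.288). The reads of Tap1 and Psmb9 cannot be fully told apart if strand was not used in counting, since their gene models share 212 exon bases on opposite strands, and Psmb8 shares 186 with another gene. Across the members 3 had groups that did not overlap, where 32.5% of all genes tested did, and 5 had an unadjusted p below 0.05, where 28.9% did.

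The class I members overlapped between the hepatocyte groups. H2-K1 had 3344, 3368 and 2542 CPM in hepatocytes labelled Tg, against 3437, 2211 and 2945 CPM in WT hepatocytes (0.15 ± 0.23 SE, adjusted p = 0.655). H2-D1 had 2193 to 3072 CPM and 1748 to 2592 CPM in the same order (0.39 ± 0.23, adjusted p = 0.270). B2m had 2258 to 2619 CPM in hepatocytes labelled Tg and 2486 to 3150.3 CPM in WT hepatocytes (−0.17 ± 0.16, adjusted p = 0.456), and its sign turned in a joint fit of all 20 libraries. H2-K1 and H2-D1 share stretches with other class I genes. Of the 50-base words of the longest H2-K1 transcript, 8.11% occur in transcripts of other genes (GENCODE M21), most of them in H2-D1 (6.52%). Of those of H2-D1, 14.3% do, most often in H2-Q1 (7.40%), so short reads from these stretches may be assigned to another gene.

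Other class II pathway genes gave no call among 12 tested in hepatocytes, with 2 at an unadjusted p below 0.05. Of 21 class I pathway genes 1 was called, Mr1, which presents vitamin B metabolites, at 1.61, 1.80 and 2.03 CPM in hepatocytes labelled Tg, against 4.69, 5.49 and 7.03 CPM in WT hepatocytes (−1.62 ± 0.23 SE, adjusted p = 0.0246). The call of Mr1 was lost without any 1 pool other than pool 3 labelled Tg and without the 3 pools of low mitochondrial share. No interferon gamma signalling gene of 17 was called, with 5 at an unadjusted p below 0.05, and Ifng had no count in any hepatocyte pool. Some genes of the leukocyte lists rose as well. Ighm, the heavy chain of IgM, reached 7.52, 8.46 and 11.1 CPM in hepatocytes labelled Tg, against 1.05, 1.29 and 1.08 CPM in WT hepatocytes (3.01 ± 0.23, adjusted p = 0.00582). It was 1 of 2 tested B and plasma cell genes, and the other was not called and had no change above 0. Ccl5, a chemokine and the 1 tested gene of the T and NK cell list, reached 642, 469 and 545 CPM in hepatocytes labelled Tg, against 262, 233 and 203 CPM in WT hepatocytes (1.29 ± 0.20, adjusted p = 0.0298). Against 6J livers, WT hepatocytes were higher in Ccl5 but lower in 5 of 6 tested genes of its list. Tyrobp, an adaptor of myeloid receptors, rose by 1.44 ± 0.28 (adjusted p = 0.0466), whereas Ptprc, which encodes CD45, had 0.242 to 3.52 CPM and 0.751 to 2.65 CPM in the same order. The pan-leukocyte genes summed to 35.1 to 58.0 CPM in hepatocytes labelled Tg and 19.3 to 35.1 CPM in WT hepatocytes. Of these 7 genes, 6 had a change above 0 and 1 was called higher. An unadjusted p below 0.05 was reached by 4 of them, where 28.9% of all genes had one. The 16 Kupffer cell and macrophage genes summed to 352 to 667 CPM and 212 to 323 CPM in the same order, without overlap. Of 15 tested, 14 had a change above 0, 7 had an unadjusted p below 0.05 and 1 was called higher. Cd3e, a T cell marker, had 0 to 0.0913 CPM in hepatocytes labelled Tg and no count in WT hepatocytes. The part of these markers in the Cd74 result was not tested.

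**Figure D4:**
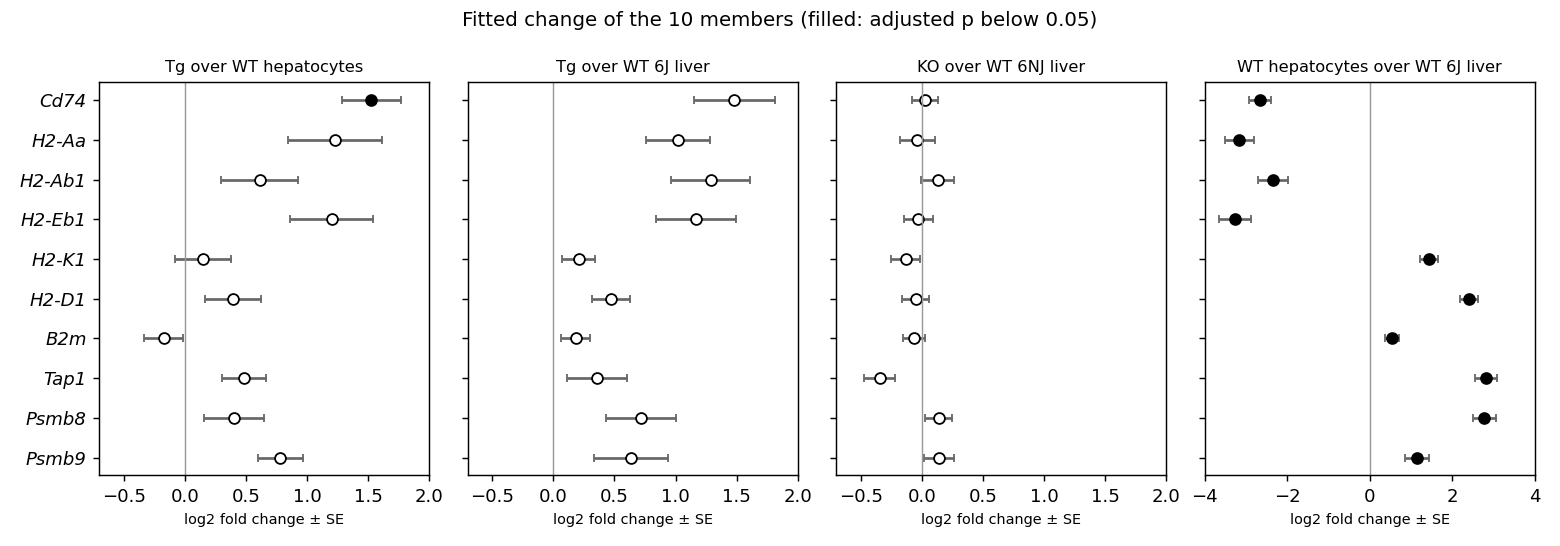
Fitted log2 fold changes (edgeR) with standard errors for the 10 members in 4 comparisons; filled points have an adjusted p below 0.05, and the last panel has a wider axis. Filled points are Cd74 in hepatocytes labelled Tg and all 10 members in WT hepatocytes over 6J liver.

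KO livers gave no call among the members, where 2.98% of the 15942 genes tested were called. The groups overlapped for all 10 members, where 23.9% of all genes did not overlap. Cd74 had 88.9, 72.9 and 85.6 CPM in KO livers, against 86.4, 73.2 and 82.2 CPM in 6NJ livers (0.03 ± 0.10 SE, edgeR adjusted p = 0.919). H2-Aa, H2-Ab1 and H2-Eb1 overlapped in the same way, with changes of −0.04 ± 0.15, 0.13 ± 0.14 and −0.03 ± 0.12. Tap1 was the 1 member with an unadjusted p below 0.05, where 18.4% of all genes had one, at 21.8, 27.5 and 22.3 CPM in KO livers, against 32.1, 25.0 and 33.4 CPM in 6NJ livers (−0.34 ± 0.13, adjusted p = 0.181). KO pool 2 lay inside the 6NJ range, so these groups overlapped. The remaining 5 members had changes between −0.13 and 0.14. DESeq2 called no member either, also with 1 at an unadjusted p below 0.05, and a fit without KO pools 1 and 3 leaves 1 KO pool, so its lack of calls says little.

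Of the other pathway genes, 1 class I gene of 21 fell in KO livers, H2-T22, a ligand of gamma delta T cells, at 46.4, 41.7 and 50.3 CPM, against 70.9, 58.9 and 61.7 CPM in 6NJ livers (−0.47 ± 0.11 SE, adjusted p = 0.0486). Ifngr2, a chain of the interferon gamma receptor, fell by 0.44 on the log2 scale (SE 0.09, adjusted p = 0.0385), as 1 of 17 interferon gamma signalling genes. Neither call was stable: both were lost in the joint fit of all 20 libraries and without KO pools 1 and 3, that of H2-T22 also with RLE scaling and without any 1 pool, and that of Ifngr2 without any 1 pool other than 6NJ pool 1. None of 15 class II pathway genes was called, and 2 had an unadjusted p below 0.05. The pan-leukocyte sum was 70.6 to 84.6 CPM in KO livers and 71.6 to 84.1 CPM in 6NJ livers, and all 8 tested skeletal muscle genes rose in KO livers.

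The difference between the genotype effects was tested directly. Between the effect in livers labelled Tg and the effect in KO livers, no member was called, where 1.02% of 16295 genes were, although 5 members had an unadjusted p below 0.05, where 16.9% of all genes had one. The difference was largest for Cd74, at 1.44 ± 0.41 SE (log2, edgeR adjusted p = 0.102), and it was 1.04 to 1.19 for the class II chains (adjusted p from 0.151 to 0.179). Without 6J pool 2 all 4 class II members were called (1.30 to 1.66, adjusted p from 0.0200 to 0.0453, where 314 of 15911 genes were), and DESeq2 called Cd74 (adjusted p = 0.0168) among 796 of 16295 genes. Of the class II pathway genes outside the members, Ctsl and Lgmn were called, at 1.06 ± 0.17 (adjusted p = 0.0157) and 0.92 ± 0.17 (adjusted p = 0.0294). Leaving out 1 pool at a time gave 0 to 3 calls in that list. Sequencing study and background strain differ along with genotype here and cannot be told apart from it. Between the effect in livers labelled Tg and that in hepatocytes labelled Tg, no member was called, where 0.842% of 15565 genes were. No member had an unadjusted p below 0.05, where 22.8% of all genes had one, and DESeq2 called none. The difference was −0.24 ± 0.45 for Cd74 and ran from −0.40 for H2-Aa to 0.48 for H2-Ab1. Age, isolation and culture differ along with tissue in this contrast and cannot be told apart from it.

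The balance of proteasome subunits was read within each library as summed counts of the immunoproteasome subunits Psmb8, Psmb9 and Psmb10 over the constitutive subunits Psmb5, Psmb6 and Psmb7 that they replace. It was 1.15, 1.02 and 1.12 in hepatocytes labelled Tg, against 1.03, 0.980 and 0.972 in WT hepatocytes, with a narrow overlap. In livers labelled Tg it was 0.338, 0.360, 0.596 and 0.384, against 0.272, 0.503, 0.245 and 0.317 in 6J livers, where 6J pool 2 and pool 3 labelled Tg stood highest. KO livers gave 0.225, 0.224 and 0.235, against 0.233, 0.209 and 0.217 in 6NJ livers. Summed counts of the 4 class II members over those of H2-K1, H2-D1 and B2m separated the groups more. This ratio was 0.145, 0.115, 0.251 and 0.165 in livers labelled Tg, against 0.0839, 0.109, 0.0663 and 0.0548 in 6J livers. It was 0.00815, 0.0134 and 0.0143 in hepatocytes labelled Tg, against 0.00291, 0.00682 and 0.00652 in WT hepatocytes. Neither pair of groups overlapped, while KO livers, at 0.0495 to 0.0568, overlapped 6NJ livers at 0.0449 to 0.0514. Over B2m alone, without H2-K1 and H2-D1, livers labelled Tg and 6J livers did overlap. Pool 2 labelled Tg held 376 over 1875 CPM, a lower ratio than 332 over 1601 CPM in 6J pool 2. The ratios were described without a test, since they pool the members.

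**Figure D5:**
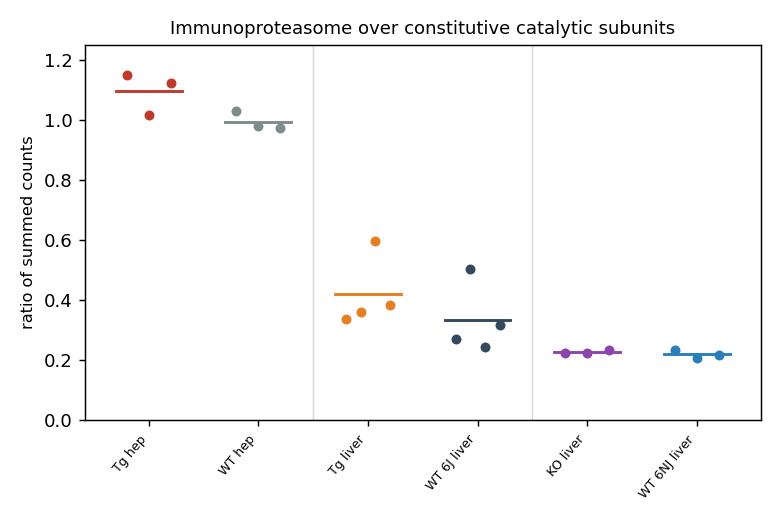
Summed counts of Psmb8, Psmb9 and Psmb10 over those of Psmb5, Psmb6 and Psmb7 in each library (axis from 0); points are pools and lines are group means. Hepatocyte pools lie between 0.972 and 1.15. Livers labelled Tg and 6J livers lie between 0.245 and 0.596, and KO and 6NJ livers between 0.209 and 0.235. The ratio is not compared between these liver studies.

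WT hepatocytes against WT 6J liver gave the widest differences, and in opposite directions for class I and class II. All 6 members of class I and peptide supply were higher in WT hepatocytes and all 4 class II members lower, and the groups did not overlap for any of the 10. As a background, 72.0% of 14824 genes were called and 73.2% did not overlap, with 35.6% called higher and 36.4% lower, 44.3% higher without overlap and 74.1% at an unadjusted p below 0.05, so a call as such is common. Tap1 was 7.07-fold and Psmb8 6.86-fold higher in WT hepatocytes (log2 2.82 ± 0.26 SE, edgeR adjusted p = 1.04e-05, and 2.78 ± 0.28, adjusted p = 1.75e-05). H2-D1 was 5.30-fold, H2-K1 2.71-fold, and Psmb9 2.22-fold higher, and the log2 change of B2m was 0.54 ± 0.17 (adjusted p = 0.0149). The fall was steepest for H2-Eb1 (−3.27 ± 0.39, adjusted p = 5.51e-05) and H2-Aa (−3.17 ± 0.36, adjusted p = 3.47e-05), followed by Cd74 (−2.66 ± 0.27) and H2-Ab1 (−2.36 ± 0.36). Without 6J pool 2 all 10 calls stood.

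The rest of the pathways followed the members in part. Of 21 class I pathway genes, 15 were higher and 4 lower in WT hepatocytes, and of 17 interferon gamma signalling genes 12 were higher and 2 lower. H2-T22 rose by 3.55 ± 0.23 SE (edgeR adjusted p = 1.14e-06), Psmb10 by 2.36 ± 0.17 (adjusted p = 2.30e-06), and Ifngr1 and Ifngr2, the 2 receptor chains for interferon gamma, by 2.70 ± 0.15 and 1.89 ± 0.16. Cd1d1, which presents lipids, fell by 2.58 on the log2 scale. Of 15 class II pathway genes 5 were higher and 8 lower. Ciita had 0.0300 to 0.384 CPM in WT hepatocytes and 2.98 to 6.91 CPM in 6J livers. Most genes of several non-hepatocyte marker lists fell with the class II members: 13 of 16 Kupffer cell and macrophage genes, 8 of 8 liver endothelial genes and 6 of 7 pan-leukocyte genes, while the hepatocyte list fell too, in 8 of 8 genes. Of 5 tested cholangiocyte genes 2 were higher and 2 lower, and that list summed to 689.97 to 1223 CPM in WT hepatocytes and 37.5 to 48.3 CPM in 6J livers. Ccl5, a chemokine listed with T and NK cells, had 203 to 262 CPM in WT hepatocytes and 1.05 to 4.38 CPM in 6J livers. Age, isolation and overnight culture differ between these groups along with cell makeup and cannot be told apart, nor can any difference of sequencing study.

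Between the WT strains, 6J liver against 6NJ liver, H2-D1 was the 1 member called, where 19.8% of 15396 genes were, with 6.92% called higher and 12.9% lower. It had 255, 426, 308 and 291 CPM in 6J livers, against 535, 431 and 452 CPM in 6NJ livers, so the groups did not overlap, and the log2 change was −0.59 ± 0.17 SE (edgeR adjusted p = 0.0368). The call was lost without any 1 of 6 of the 7 pools and held without 6J pool 2, where H2-K1 was called as well (−0.55, adjusted p = 0.0248). An unadjusted p below 0.05 was reached by 3 members, H2-D1, H2-K1 and Psmb8, where 33.2% of all genes had one. Psmb8 was the other member without overlap, of 2, where 32.4% of all genes had none, at 13.0 to 27.9 CPM in 6J livers and 10.1 to 12.4 CPM in 6NJ livers (0.65 ± 0.23, adjusted p = 0.0833). Strain and sequencing study cannot be told apart in this comparison. Psmb5, a constitutive subunit, had 9.56 to 15.5 CPM in 6J livers and 40.0 to 49.1 CPM in 6NJ livers (−1.74 ± 0.19, adjusted p = 0.000206), so the proteasome ratio was not compared between these studies.

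Across the 6 groups the class II members ran in nearly one order. The livers labelled Tg were highest for all 4 and did not overlap the next group, 6J, KO and 6NJ livers overlapped one another, and WT hepatocytes were lowest. Cd74 averaged 347 ± 184 CPM in livers labelled Tg and 22.9 ± 6.78 CPM in WT hepatocytes (SD, n = 4 and 3). For the class I and peptide supply members the hepatocyte groups were highest. They stood clear of every liver group except for Psmb9, which had 35.3 CPM in the lowest WT hepatocyte pool and 39.1 CPM in pool 3 of the livers labelled Tg.

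Likeness over the 20 libraries was measured as the root-mean-square difference of centred log2(CPM + 1), among 13206 genes that averaged 1 CPM or more, and is a description in which hepatocytes against liver weighs most. The nearest genes of all to Cd74 were the class II chains, at 0.349 for H2-Aa, 0.378 for H2-Ab1 and 0.410 for H2-Eb1, ahead of Crip1 (0.431), Igf1r (0.469) and Abcg1 (0.487). H2-Ab1 lay nearest to H2-Eb1 (0.253) and H2-Aa (0.264), followed by Mmp2, Fstl1 and Axl at 0.324 to 0.344. H2-K1 lay nearest to H2-T23 (0.124), a nonclassical class I gene, then AI413582 and Washc1, and was 0.447 from H2-D1. B2m lay nearest to Dazap2, Lta4h and Stt3b, at 0.126 to 0.137, and itself varied by only 0.333 around its mean. Psmb8 lay nearest to Icam1 (0.235), Plpp2 and Prmt2, and was 0.365 from Tap1.

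CLIP-seq, which sequences RNA crosslinked to the A1CF protein in hepatocytes labelled Tg, was read in 10 libraries of 6151 to 10902 counts. H2-Aa and H2-Ab1 had 1 count each and the other 8 members 0 of 80854 counts in all. A count of 0 allows a share of up to 0.00371%, for counting error only. H2-K1, H2-D1 and B2m averaged 3085, 2769 and 2434 CPM of RNA in hepatocytes labelled Tg, so this limit lies far below their RNA share. The reason for their low recovery was not tested. The class II chains averaged 8.56 to 13.9 CPM of RNA, a share below this limit. Recovery in proportion to their RNA could thus give no count at this depth. The 1 count of H2-Aa or of H2-Ab1 is 0.00124% of all CLIP counts, too few to judge binding of these transcripts.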

How the data were processed

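RNA-seq was read from 20 libraries in 6 groups, named by strain, tissue and age in the labels, and CLIP-seq from 10. Per the submitters' processing notes, bcl2fastq, STAR 2.0.4b, Subread and featureCounts 1.45 were used with GRCm38, and the strand setting, the annotation release and how multiply aligned reads were counted are not given in the sources used here. The deposited counts per gene are raw. The deposited CPM divide the authors' counts by the library total, and the deposited RPKM divide them further by gene length; both were recomputed to within 4.9e-10. Symbols matched 40254 of 41388 identifiers.

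Low genes were removed by filterByExpr at a count of 10 and a total of 15. After TMM scaling, the libraries of each comparison were tested with edgeR 4.0.16 (quasi-likelihood F-test, R 4.3.3), two-sided, with Benjamini-Hochberg adjustment over all genes tested and a threshold of 0.05. Values are log2 changes ± SE from edgeR, and levels are deposited CPM, or RPKM between genes. The procedure was tested on simulated data. Alternatives were DESeq2 1.42.0, RLE scaling, no filter, a joint fit of all libraries, the replicate number as a block and leaving out each pool. The pools with the most muscle RNA, and the 3 hepatocyte pools with a low mitochondrial share, were left out in alternatives chosen after seeing the data.

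The members and gene lists were chosen with earlier results of these data known, and the motifs after reading the promoters. Genes outside the members were named by a rule: per pathway list, up to 4 with the smallest p past the threshold; the 3 nearest in pattern to 5 members; and defining cell type markers. H2-DMa, Ciita, Nlrc5, Ifng, Ighm, Tyrobp, Cd163, Ccl5, Psmb10 and Psmb5 were added after their values were seen. The ratios were to be tested by permutation but are given without a p, since they pool the members.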

Additional observations from a re-analysis of the deposited data

Results flagged for a closer look

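Tap1 reached 53.6 CPM in pool 3 of the livers labelled Tg, far from the other 3 pools, at 30.8 to 34.6 CPM. It was the 1 value past Dixon's limit among 26 groups of 4 values tested, of genes and ratios in livers labelled Tg and in 6J livers, where chance flags about 1 in 20 groups. The same pool was the highest labelled Tg for all 4 class II members, H2-K1, H2-D1, B2m, Psmb8 and Psmb9, and its 7 pan-leukocyte genes summed to 187 CPM, against 113 to 116 CPM in the other pools labelled Tg.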

How the results depend on the processing

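The 10 calls of WT hepatocytes against WT 6J liver and the 0 calls in KO livers and between the effects in livers and hepatocytes labelled Tg stood under every alternative run. The number of members called depended on the test elsewhere. With DESeq2 it was 4 for hepatocytes labelled Tg (2027 of 13770 genes), 5 for livers labelled Tg (1242 of 14110), 1 for the difference between the effects in livers labelled Tg and KO livers (796 of 16295), and 3 for 6J against 6NJ liver (3564 of 15396). With all 20 libraries in one fit it was 4 for hepatocytes labelled Tg, where 4323 of 17267 genes were called and the median of all genes moved to 0.13, and 4 for livers labelled Tg (991 genes). Leaving out 1 pool at a time gave 0 to 3, 0 to 4, 0 to 4 and 0 to 2 calls in the same 4 comparisons, with fewer samples in each fit. Cd74 in livers labelled Tg was also called without pool 1 or pool 2 labelled Tg (adjusted p = 0.0459 and 0.0388), and 3 members were called in hepatocytes without pool 3 labelled Tg, where 4934 of 14103 genes were. RLE scaling and no filter changed no count of members.

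With the replicate block, Cd74 in hepatocytes labelled Tg was no longer called (1.55, adjusted p = 0.0547), so 0 members were, and no other member's call changed. The calls of Lgmn and Ctsl in livers labelled Tg and in the difference from KO livers, of Mr1 in hepatocytes labelled Tg, and of H2-T22 and Ifngr2 in KO livers were lost with it too. Deviations of same-numbered pools correlated from −0.661 to 0.776, both found in hepatocytes, at pool 2 and pool 1. So few pools cannot show whether the numbers pair them, so the results with the block stand beside those without it. B2m in hepatocytes labelled Tg turned to 0.0032 in the joint fit and to 0.0149 without pools 1 and 2 labelled Tg and WT pool 1. Without KO pools 1 and 3, H2-Ab1 turned to −0.0154 and Cd74 to −0.174 in KO livers. With 1 pool left out, values near 0 changed sign: in KO livers H2-Aa ran from −0.16 to 0.080, H2-Ab1 from −0.0041 to 0.27, H2-Eb1 from −0.10 to 0.066, Cd74 from −0.028 to 0.12 and H2-D1 from −0.12 to 0.054. Between the Tg effects in liver and hepatocytes H2-Eb1 ran from −0.43 to 0.18, Cd74 from −0.47 to 0.017, H2-K1 from −0.33 to 0.048, H2-D1 from −0.32 to 0.055 and Psmb8 from −0.13 to 0.39. In 6J against 6NJ liver H2-Ab1 ran from −0.21 to 0.30, H2-Eb1 from −0.21 to 0.36 and Psmb9 from −0.14 to 0.32. The class II sum over the Kupffer cell and macrophage sum gave 0.84 for livers labelled Tg, with groups that overlapped. The cause of these shifts was not tested. The ratios moved by less than the spread between pools with RPKM, without H2-K1 and H2-D1, and without Psmb10 and Psmb7. Without H2-K1 and H2-D1, however, livers labelled Tg and 6J livers overlapped in the class II to class I ratio. Depth limits the class II chains most, at 2.40 to 16.3 CPM in the hepatocyte pools.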

Other observations

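H2-Ea-ps, the pseudogene of the class II chain that pairs with H2-Eb1, split the livers labelled Tg, with 11.3 and 7.54 CPM in pools 1 and 2 and no count in pools 3 and 4, against 8.83, 3.95, 3.25 and 5.05 CPM in 6J livers. KO and 6NJ livers and both hepatocyte groups, WT C57BL/6J hepatocytes included, had no count. These counts thus split pools that share a label of genotype or strain. The bearing of this split on the members was not tested, the class II values in livers labelled Tg and H2-D1 between WT strains included. In the 12-month livers labelled Tg, Cd4 rose to 8.03, 6.13, 6.95 and 3.64 CPM, against 1.48, 1.74, 1.10 and 1.35 CPM in 6J livers (log2 1.99 ± 0.28 SE, edgeR adjusted p = 0.0188). Of 5 tested genes of the T and NK cell list, Cd4 was the only 1 with a change above 0. Cd3e, a T cell marker, had 0.710 to 1.09 CPM in livers labelled Tg and 0.399 to 1.90 CPM in 6J livers. These genes were picked after their values were seen.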
